A study of Rattus norvegicus with 4 samples.

Results

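The counts described here are those of 116 microRNA genes in ribosome profiling libraries of cultured rat heart cells, read family by family. Members were the rows whose gene symbol begins with Mirlet, or with Mir and a digit, and whose deposited counts summed to at least 40 over the 4 libraries. A further 8 microRNA rows were left out by name (Mir143, Mir145, Mir7a-1, Mir7a-2, Mir101a, Mir101-2, Mir103a1 and Mir103a2). The files hold 31038 rows, of which 450 carry a microRNA symbol (among them 1 host transcript, Mir155hg). Of those 450, 232 had no count in any library and 94 had a sum above 0 and under the minimum. The members comprised 8 genes of the let-7 family, 6 of the miR-30 family, 4 of the miR-15/16 family, 10 of the miR-17-92 cluster and its paralogues, and 88 others. The members were thus selected on their summed counts over both groups, and those sums are given only as a description. Mir3102, Mir411 and Mir503 lay just inside the minimum with 40 counts each, and Mir181c lay just outside it with 36.

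Ribosome profiling counts RNA fragments recovered with ribosomes. Each group had 2 libraries. The siNT group received a control siRNA and the si3m group an siRNA against eIF3m, a subunit of the translation initiation factor eIF3, and both groups were otherwise cultured rat myocardial cells treated with cycloheximide before lysis. Per the labels' protocols, monosome and polysome fractions were collected after ultracentrifugation and a small RNA library kit was used. The cell label NRVM usually means neonatal rat ventricular myocytes, whereas the protocol names embryonic rat myocardium, and the labels give neither an age nor a strain. The labels do not say that replicates were separate cultures. The p-values below therefore reflect no more than the spread among these libraries, which may be technical. In such bulk samples, fewer cells of a type and less RNA per cell cannot be told apart.

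A microRNA gene encodes a hairpin that Drosha and Dicer cut to a short mature RNA, which is loaded into an Argonaute protein. The mature RNA then guides that protein to messenger RNAs through its seed, a short stretch near the 5′ end, and the bound messenger is translated less and degraded faster. Genes with the same seed form a family and can repress the same messengers. MicroRNAs are not translated, so a value below is an amount of RNA counted on the gene in ribosome fractions and not a measure of its translation.

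The mature sequences of the family members on which the results turn show how alike they are. They are RefSeq sequences of the assembly GRCr8, 5′ to 3′, with bases 2 to 8, the seed, in capitals. Of the 116 members, 111 matched RefSeq by symbol and 5 by synonym, and 110 had a mature sequence there. Mir30b, Mir30d, Mir181b2, Mir320a, Mir328 and Mir598 are named only. The let-7 genes share a seed and differ in the bases after it:
let-7i-5p: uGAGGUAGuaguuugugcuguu
let-7f-5p: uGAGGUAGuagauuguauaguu
let-7a-5p: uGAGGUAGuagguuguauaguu
let-7c-5p: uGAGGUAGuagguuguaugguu

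In the miR-30 family, the sequences of the member with the lowest si3m-to-siNT ratio (Mir30a) and of the member with the highest (Mir30e) differ only outside the seed:
miR-30a-5p: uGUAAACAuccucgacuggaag
miR-30e-5p: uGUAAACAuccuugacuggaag

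The miR-15/16 sequences are shown because the first pair below comes from neighbouring hairpins with unlike log2 fold changes. Mir503 has a seed of its own that differs in the last base:
miR-16-5p: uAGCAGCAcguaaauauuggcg
miR-15b-5p: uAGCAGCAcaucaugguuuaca
miR-322-5p: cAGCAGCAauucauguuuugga
miR-503-5p: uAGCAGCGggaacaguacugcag

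From the miR-17-92 group, 1 sequence is shown for each of the 3 seeds that its members carry:
miR-20a-5p: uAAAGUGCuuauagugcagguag
miR-92a-3p: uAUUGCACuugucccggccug
miR-19b-3p: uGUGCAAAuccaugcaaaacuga

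The most abundant member, Mir148a, shares its seed with Mir152 and Mir148b:
miR-148a-3p: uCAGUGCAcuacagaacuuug
miR-152-3p: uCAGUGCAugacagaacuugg
miR-148b-3p: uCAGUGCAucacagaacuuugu

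Some genes cannot be separated by their mature RNA. Among the members, 19 have a mature sequence identical to that of another member, for instance Mirlet7c-1 and Mirlet7c-2, Mir30c1 and Mir30c2, Mir92a1 and Mir92a2, Mir19b1 and Mir19b2, and Mir17 and Mir106a. How reads with several matches were assigned is not given in the sources used here, so the split within such a pair is uncertain. The counts do not separate the arms of a hairpin either.

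Depth moved with group. The siNT libraries held 3924434 and 3835750 counts and the si3m libraries 8687598 and 6726969, in replicate order. Even numbers made up 94.9% to 97.3% of nonzero counts, so a 0 was taken to allow 3 fragments, or 6 deposited counts. That is 0.691 to 1.56 CPM, which are counts divided by library size. This limit covers counting error only, and the reads carried no stated molecular identifiers. Eif3m, the siRNA's target, had a TMM-scaled level of 532 and 451 CPM in siNT and 138 and 191 CPM in si3m. Cardiomyocyte markers were nearly missing: the 12 genes of that list summed to between 50.9 and 74.7 CPM per library, Tnni3 and Nppa were at 0 in all 4 libraries. Of the 12, 3 had enough counts for the test: Tnnt2 was higher in si3m (log2 1.25), and Ttn and Pln were lower (log2 -0.64 and -1.56). The 5 smooth muscle markers summed to between 3112 and 3687 CPM, with Acta2 higher (log2 0.35), Tagln lower (log2 -0.23) and the other 3 not past the threshold. The 9 fibroblast markers, of which Tcf21 was at 0, summed to 10930 and 10780 CPM in siNT and 15316 and 15390 CPM in si3m, and of the 6 that were tested 5 were higher and 1 was lower. The part of such marker differences in the microRNA values was not tested. The labelled cell type was therefore not supported by its defining markers, and the cells are called by their label only. Markers of endothelial cells, leukocytes and red cells summed to at most 3.48 CPM per list and library.

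MicroRNA genes took up a smaller part of the si3m libraries. The members held 1.51% and 1.56% of all counts in siNT and 0.611% and 0.775% in si3m, or 1.54% ± 0.0365 against 0.693% ± 0.116 (n = 2 each, SD). The siNT values lay above both si3m values, but this share was not tested, since an exact two-sided permutation test of 2 libraries against 2 cannot go below p = 0.333. In deposited counts the members summed to 59372 and 60008 in siNT and to 53074 and 52142 in si3m. These sums were much closer than the shares, because the si3m totals were larger. Whether depth has a part in the difference was not tested beyond thinning every library to the smallest total. Then 69 of 108 tested members were lower, beside 1698 of 12043 rows. Of these 69, 67 were also lower without thinning.

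Gene by gene, levels were compared on TMM-scaled CPM with edgeR's quasi-likelihood test, fitted to all rows with enough counts and adjusted by Benjamini-Hochberg over all of them. A gene is called here when its adjusted p is below 0.05. Of 12672 rows tested, 13.9% were lower in si3m and 14.0% were higher. Of the 116 members, 110 passed the low-count filter, and 69 of these (62.7%) were lower, 1 was higher and 40 did not pass the test. Log2 fold changes of the tested members had a median of -1.14, against 0.016 over all rows tested, and ran from -3.67 for Mir192 to 2.89 for Mir222. They were below 0 in 101 of the 110. In 89 tested members both si3m values lay below both siNT values (background 31.3% of all rows tested), in 1, Mir1949, they lay above (background 32.6%), and in 20 the groups overlapped. Mir370, Mir379, Mir381, Mir411, Mir493 and Mir743a were not tested for lack of counts.

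**Figure D1:**
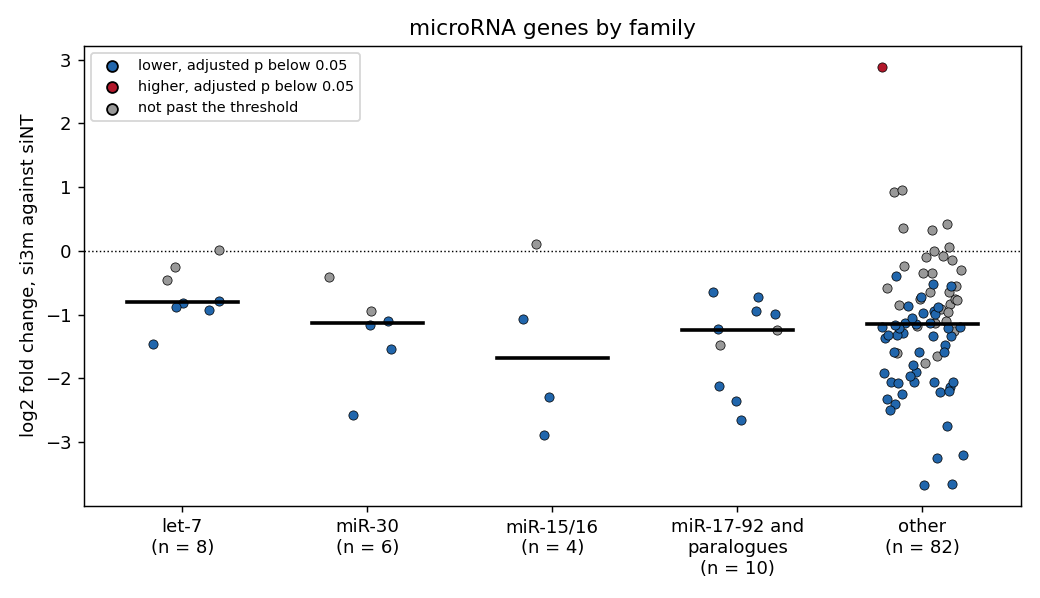
Log2 fold change of TMM-scaled CPM, si3m against siNT, for the 110 tested microRNA genes (1 point each), by family. Blue points were lower and the red point higher at an edgeR adjusted p below 0.05, grey points did not pass, and black bars are family medians, from -0.80 in let-7 to -1.68 in miR-15/16.

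The let-7 family, known as a brake on growth genes such as Hmga2 and the Ras genes and as a mark of differentiated cells, was lower in si3m for 5 of its 8 genes, and the other 3 did not pass. Its median log2 fold change was -0.80. Mirlet7i, the most abundant of the family, was at 1125 and 1168 CPM in siNT and at 341 and 493 CPM in si3m. Both si3m libraries were far below both siNT libraries, and the fall of 1.46 on the log2 scale (SE 0.11, edgeR adjusted p = 6.12e-08) was the largest of the family. Mirlet7f-2 was at 508 and 559 CPM in siNT and 264 and 299 CPM in si3m, again with no overlap, and fell by 0.92 on the log2 scale (SE 0.068, edgeR adjusted p = 5.75e-08).

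Mirlet7c-1 and Mirlet7c-2, whose mature sequence is the same, fell by 0.81 and 0.78 on the log2 scale, and Mirlet7g, from a separate hairpin, by 0.89. Mirlet7b had 61.7 and 72.7 CPM in siNT and 38.6 and 60.0 CPM in si3m, and its log2 fold change of -0.46 missed the threshold (edgeR adjusted p = 0.0712). It passed under 7 of 13 alternatives, and with 1 library left out its log2 fold change ran from -0.79 without si3m replicate 2 (adjusted p = 0.000754) to -0.15 without si3m replicate 1 (adjusted p = 0.641). Mir98, which carries the let-7 seed under another name, had a log2 fold change of -0.25 and did not pass. Mirlet7a1 was at 44.8 and 46.7 CPM in siNT, 23.1 CPM in si3m replicate 1 and 71.5 CPM in si3m replicate 2. The si3m libraries lay on either side of siNT, and the log2 fold change was 0.021 (edgeR adjusted p = 0.973). Without si3m replicate 2 it was -0.98 (adjusted p = 0.00107), and without si3m replicate 1 it was 0.65 (adjusted p = 0.00613). The family as a whole kept its part of the members' counts, 17.1% ± 0.175 in siNT and 17.2% ± 0.643 in si3m (n = 2 each, SD).

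In the miR-30 family, 4 of 6 genes were lower and 2 did not pass, with a median log2 fold change of -1.13. Known targets of this family include the epithelial-mesenchymal regulator Snai1 and the matrix protein Ccn2. Mir30a, its most abundant gene, was at 386 and 404 CPM in siNT and at 56.5 and 77.0 CPM in si3m. This 5.97-fold fall (log2 -2.58, SE 0.100, edgeR adjusted p = 2.48e-11) was far outside the spread within either group. Mir30d was at 138 and 122 CPM in siNT and 45.2 and 71.8 CPM in si3m, with a log2 fold change of -1.17. Mir30c2 fell by 1.54 and Mir30b by 1.09 on the log2 scale. Mir30c1, which shares the mature sequence of Mir30c2, had a log2 fold change of -0.94 and did not pass (edgeR adjusted p = 0.0783). It passed under 6 of 13 alternatives, and its log2 fold change was -1.86 without si3m replicate 2 (adjusted p = 5.40e-05) and -0.32 without si3m replicate 1 (adjusted p = 0.592).

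Mir30e overlapped between groups, with 32.9 and 39.1 CPM in siNT and 16.7 and 38.4 CPM in si3m, and its log2 fold change of -0.41 did not pass (edgeR adjusted p = 0.318). It passed without siNT replicate 1 (adjusted p = 0.0492) and without si3m replicate 2 (log2 -1.09, adjusted p = 0.00168). In deposited counts, Mir30a exceeded Mir30e 11.7-fold and 10.3-fold in the siNT libraries and 3.38-fold and 2.01-fold in the si3m libraries. Ratios of this kind are taken within a library, so depth and scaling do not enter them, but the pairs here were chosen after their values were seen. The miR-30 genes together took 4.12% ± 0.0997 of the members' counts in siNT and 2.45% ± 0.434 in si3m (n = 2 each, SD). The family median depended on 1 library, at -0.71 without si3m replicate 1 and -1.83 without si3m replicate 2, and the call of Mir30b was lost when si3m replicate 1 was left out (adjusted p = 0.335).

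The miR-15/16 family, known to hold down cyclins and the survival factor Bcl2, had 4 members, of which 3 were lower and 1 did not pass. Mir16 was at 96.6 and 103 CPM in siNT and at 17.7 and 23.2 CPM in si3m, a log2 fold change of -2.30 (edgeR, SE 0.15, adjusted p = 1.74e-08). Mir15b, which lies in the same small cluster within the Smc4 gene, was at 4.98 and 7.11 CPM in siNT and at 5.65 and 7.42 CPM in si3m. The groups overlapped for Mir15b, whose log2 fold change of 0.11 did not pass (SE 0.40, edgeR adjusted p = 0.875). The count of Mir16 was 19.4 and 14.5 times that of Mir15b in siNT and 3.13 times it in each si3m library.

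The other members of this family lie in a cluster on the X chromosome. Mir322 fell by 1.06 on the log2 scale (SE 0.27, edgeR adjusted p = 0.00715). Mir503 had 14 and 18 deposited counts in siNT and 6 and 2 in si3m, the latter at or under the floor of 6 counts. Its log2 fold change, -2.88 (edgeR adjusted p = 0.0101), was no longer called when siNT replicate 2, si3m replicate 1 or si3m replicate 2 was left out (adjusted p = 0.0854, 0.0693 and 0.181). The family median of -1.68 was -1.06 among its members with a sum of at least 100 counts.

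The miR-17-92 cluster, a Myc-activated group known to promote proliferation, and its paralogues had 10 members, of which 8 were lower and 2 did not pass. Their median log2 fold change was -1.24. Mir20a was at 26.9 and 36.1 CPM in siNT and at 4.71 and 7.73 CPM in si3m, a log2 fold change of -2.36 (edgeR, SE 0.28, adjusted p = 1.37e-05). Mir92a1, from the same cluster, fell by 0.99 on the log2 scale, and Mir17 and Mir19b1, each with at most 30 counts in a library, did not pass (log2 -1.47 and -1.24). Mir17 passed under 5 of the 12 alternatives that tested it, with adjusted p from 0.0166 without a low-count filter to 0.0414 without siNT replicate 2. Its log2 fold change was -2.55 without si3m replicate 2 and -0.79 without si3m replicate 1.

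The X-linked paralogue cluster was lower for all 3 of its members, with log2 fold changes of -2.65 for Mir19b2, -2.12 for Mir106a and -0.94 for Mir92a2. Mir106a was at -2.98 without si3m replicate 2 and at -1.51 without si3m replicate 1 and passed in both. The call of Mir19b2 was lost without si3m replicate 2 (adjusted p = 0.152) and that of Mir92a2 without si3m replicate 1 (adjusted p = 0.313). The third cluster, within the Mcm7 gene, was also lower for all 3. Mir25, the most abundant gene of the group, was at 142 and 170 CPM in siNT and 87.4 and 114 CPM in si3m. Its groups did not overlap, and it fell by 0.64 on the log2 scale (SE 0.12, edgeR adjusted p = 0.000696). Mir93 fell by 1.23 and Mir106b by 0.73, the latter losing its call without si3m replicate 1 (adjusted p = 0.0796). Genes of this group took 2.38% ± 0.103 of the members' counts in siNT and 2.61% ± 0.0273 in si3m (n = 2 each, SD).

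**Figure D2:**
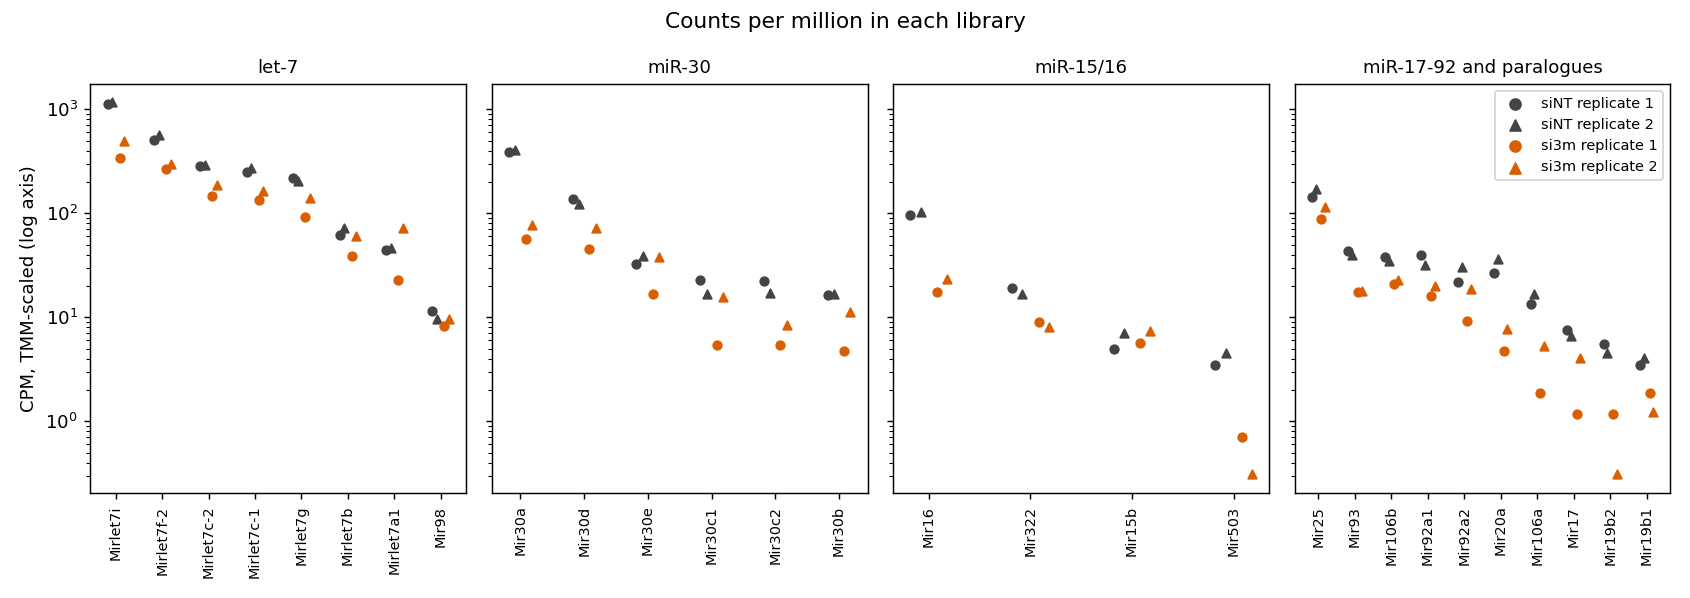
TMM-scaled CPM (log axis) of each let-7, miR-30, miR-15/16 and miR-17-92 gene in each of the 4 libraries (circles replicate 1, triangles replicate 2, grey siNT, orange si3m). Most orange points lie below the grey ones, for example 56.5 and 77.0 against 386 and 404 CPM for Mir30a, while Mirlet7a1, Mir15b and Mir30e overlap.

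Outside these families, 82 of 88 genes were tested, 49 were lower, 1 was higher and 32 did not pass, with a median log2 fold change of -1.16. Mir148a, which targets the DNA methyltransferase Dnmt1, alone held 31.0% and 31.1% of the members' counts in siNT and 41.7% and 37.4% in si3m. It was at 4578 and 4745 CPM in siNT and at 2607 and 3019 CPM in si3m, so its level fell (log2 -0.73, SE 0.047, edgeR adjusted p = 1.23e-08) while its part of the microRNA counts was larger. Its seed partner Mir152 was at 469 and 480 CPM in siNT and at 87.8 and 102 CPM in si3m, a log2 fold change of -2.32 (edgeR, SE 0.071, adjusted p = 1.33e-12). The third gene with this seed, Mir148b, fell by 1.59 on the log2 scale. Deposited counts of Mir152 were 0.102 and 0.101 times those of Mir148a in siNT and 0.0337 and 0.0339 times in si3m, a ratio that hardly varied within a group.

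Other abundant members moved the same way. Mir10a, encoded in the Hoxb cluster, was at 829 and 839 CPM in siNT and at 273 and 286 CPM in si3m (log2 -1.58, SE 0.052, edgeR adjusted p = 3.56e-12). Mir199a2, which is abundant in mesenchymal cells, fell by 1.59 on the log2 scale, Mir99a by 1.34 and Mir28 by 1.29. Mir99a differed between the si3m libraries (131 and 273 CPM), and its log2 fold change was -1.94 without replicate 2 of si3m and -0.88 without replicate 1, passing in both. Falls were not limited to any level of abundance: of tested members with a mean of 200 CPM or more, 13 of 13 were lower (median log2 -1.34), of those from 50 to 200 CPM, 17 of 21 (median -0.89), and of those under 50 CPM, 39 of 76 (median -1.13).

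The deepest falls among all members were those of Mir192 and Mir878. Mir192, a microRNA induced by p53, had 66 and 58 deposited counts in siNT and 10 and 8 in si3m (log2 -3.67, SE 0.41, edgeR adjusted p = 6.90e-06). Mir878, from an X-linked cluster known for its expression in testis, had 54 and 68 counts in siNT and 12 and 6 in si3m (log2 -3.66, SE 0.43, edgeR adjusted p = 1.06e-05). Mir34a, the best known microRNA target of p53, was at 35.3 and 26.9 CPM in siNT and at 2.59 and 4.02 CPM in si3m, a log2 fold change of -3.25 (edgeR, SE 0.30, adjusted p = 7.85e-07). For all 3 genes, every si3m value was several-fold below every siNT value.

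The next was Mir542, at 136 and 147 CPM in siNT and at 14.4 and 16.4 CPM in si3m (log2 -3.21, SE 0.13, edgeR adjusted p = 5.06e-11). Mir592, Mir421 and Mir708 had log2 fold changes of -2.76, -2.49 and -2.41 and were called lower. Mir592 had 24 and 28 deposited counts in siNT and 6 and 8 in si3m. For Mir421 these were 22 and 32 in siNT and 12 and 6 in si3m, so both genes reached the floor of 6 counts in si3m. Mir708 shares the seed of Mir28, and its count was 0.0754 and 0.0769 times that of Mir28 in siNT and 0.0368 and 0.0330 times in si3m.

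Muscle-enriched microRNAs had few or no counts apart from Mir206, a skeletal muscle microRNA. Mir206 had 428 and 412 deposited counts in siNT and 440 and 410 in si3m, equal to 107 and 105 CPM and to 51.8 and 63.4 CPM, and it fell by 0.88 on the log2 scale (edgeR adjusted p = 4.87e-05). Mir1, Mir1b, Mir133a, Mir208a and Mir208b, which are typical of heart muscle, were listed at 0 in all 4 libraries. By counting error alone this allows up to 6 counts in each. They are among the 232 microRNA rows without a count, and the part of read assignment in those zeros was not tested. Mir133b had 6 counts in siNT replicate 2 and no other, and Mir499 had between 2 and 12.

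By their neighbours in RefSeq GRCr8, 46 members lie within 10000 bases of another member, in 17 clusters. The X-linked cluster of Mir450a1, Mir542, Mir351, Mir503 and Mir322, linked to cell cycle exit and muscle differentiation, was lower for 5 of 5 genes, with log2 fold changes from -3.21 to -1.06. Mir542 had 7.18 and 8.76 times the count of Mir322 in siNT and 1.61 and 2.04 times in si3m. In the cluster of Mir23a, Mir27a and Mir24-2, Mir24-2 was at 362 and 358 CPM in siNT and at 72.5 and 101 CPM in si3m (log2 -2.06, SE 0.11, edgeR adjusted p = 7.46e-10), whereas Mir23a fell by only 0.54. Mir23a lost its call without si3m replicate 1 (adjusted p = 0.0786).

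A further X-linked cluster held Mir741, Mir878, Mir881, Mir871, Mir3580 and Mir465, with 3 of 6 lower and log2 fold changes from -3.66 to -0.092. Mir881, its most abundant gene, was at 80.1 and 80.3 CPM in siNT and 57.0 and 55.4 CPM in si3m, a fall of 0.51 on the log2 scale. The count of Mir878 was 0.168 and 0.215 times that of Mir881 in siNT and 0.0248 and 0.0168 times in si3m. Differences between genes of a cluster were not tested. Clustered members had a median log2 fold change of -1.09 and the others one of -1.17. Of the 24 tested members on the X chromosome 16 were lower, and their median of -1.26 stood beside -1.11 for members elsewhere.

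The si3m libraries differed from each other on microRNA rows. Among members with at least 40 counts in the si3m pair, 26 of 95 (27.4%) were at least 2-fold higher in replicate 2 than in replicate 1 on TMM-scaled CPM, and no member was 2-fold higher in replicate 1. Over all rows with that many counts the corresponding percentages were 1.21% and 1.35%. In the siNT pair, no member of 96 was at least 2-fold higher in replicate 2 and 1 was in replicate 1, beside 1.70% and 1.72% of all rows. Of the 26 genes, 21 were below both siNT libraries in si3m replicate 1, and 13 were above both in si3m replicate 2. The edgeR test called 7 of them lower and 1 higher, 13 did not pass and 5 were not tested. Those 5 had no count in si3m replicate 1 and reached the minimum sum only through si3m replicate 2. Their place among the 26, and among the 13 above siNT, was thus fixed by how members were chosen. Leaving these 26 genes aside, 62 of 89 tested members were lower, with a median log2 fold change of -1.20. Because the 26 genes were picked by their own si3m values, these figures are a description and cannot serve as a check.

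The single member called higher was among them. Mir222, which targets the cell cycle inhibitor Cdkn1b, had 14 and 20 deposited counts in siNT, 24 in si3m replicate 1 and 402 in si3m replicate 2, or 3.48, 5.08, 2.83 and 62.2 CPM in that order. The si3m libraries lay on both sides of siNT. The fitted rise of 2.89 on the log2 scale (SE 0.91, edgeR adjusted p = 0.0272) rested on si3m replicate 2, without which it was -0.59 (adjusted p = 0.725), and the call was not made by DESeq2 (adjusted p = 0.217). Its cluster neighbour and seed partner Mir221 had 182, 166, 206 and 582 counts in the same order and did not pass. Without si3m replicate 2 its log2 fold change was -0.84, and without si3m replicate 1 it was 1.05 (adjusted p = 0.0068 and 2.81e-07).

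Others of the 26 showed the same split. Mir140, best known from cartilage, had 264 counts in each siNT library, 156 in si3m replicate 1 and 630 in si3m replicate 2, and its log2 fold change went from -1.84 without si3m replicate 2 to 0.57 without si3m replicate 1. Mir100 was at 130 and 152 CPM in siNT and at 26.4 and 99.0 CPM in si3m, and its log2 fold change of -1.21 (edgeR adjusted p = 0.0153) was -2.41 or -0.50 with either si3m library alone and was not called by DESeq2 (adjusted p = 0.374). Mir146a, a microRNA of the NF-kB feedback, had 22, 18, 6 and 80 counts in the order siNT 1, siNT 2, si3m 1 and si3m 2. Mir27a had 120, 126, 106 and 288 in the same order, and the groups overlapped for both genes.

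A set of 5 members had almost all of their counts in si3m replicate 2. Mir381, Mir493, Mir370 and Mir411 had 90, 68, 44 and 40 counts there and none elsewhere, and Mir379 had 48 there and 2, 2 and 0 elsewhere. All 5 belong to the imprinted Dlk1-Dio3 region on chromosome 6, a long array of microRNAs expressed in embryonic and muscle tissue, and they are members only through that library. Some other genes, named after their values were seen, were also higher in it: the muscle genes Ckm (6, 0, 0 and 46 counts), Mb (0, 0, 2 and 38) and Acta1 (14, 20, 44 and 128). Not all muscle genes were highest there: in the same order Ttn was at 39.3, 43.7, 26.8 and 26.3 CPM, Pln was at 26.4, 16.3, 5.65 and 8.97 CPM, and Tnni3 was at 0 throughout, whereas Myh7 had 0, 0, 0 and 8 counts. The 12 cardiomyocyte markers summed to 74.7, 69.1, 50.9 and 60.3 CPM. Of the leukocyte-enriched microRNAs, Mir142 had 28 counts in si3m replicate 2, Mir223 and Mir150 had 2 each and Mir155 had none. The leukocyte marker genes summed to 1.55 CPM there, below the 3.48 and 3.05 CPM of siNT, and the globin genes Hba-a1 and Hbb were at 0 in every library. What part the makeup of that library has in the microRNA values was not tested. The median log2 fold change of the tested members was -1.39 without si3m replicate 2 and -0.88 without si3m replicate 1.

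**Figure D3:**
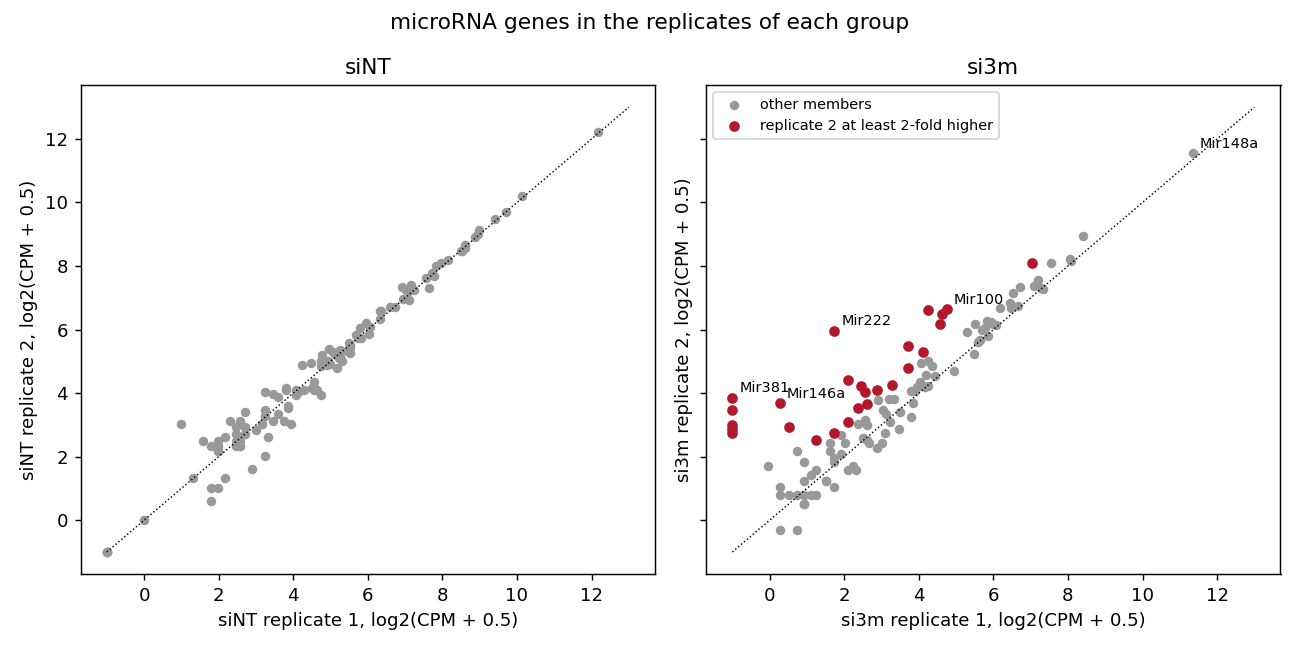
Log2(TMM-scaled CPM + 0.5) of the 116 microRNA genes in replicate 2 against replicate 1 of siNT (left) and si3m (right), with the line of equal values dotted. Red points are the 26 genes at least 2-fold higher in si3m replicate 2 among those with at least 40 counts in the pair, and 5 of them, Mir381 among others, had no count in si3m replicate 1.

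Protein-coding genes that overlap a microRNA mostly had log2 fold changes above that of the microRNA. In RefSeq GRCr8, 56 members overlap 51 protein-coding genes by position, on either strand. Of these genes 41 were tested: 10 were lower, 5 were higher and 26 did not pass, with a median log2 fold change of -0.050. That is 36.6% called, against 27.8% of all rows. For 47 pairs of a microRNA and an overlapping gene both were tested, and the microRNA's log2 fold change was the lower of the pair in 41. The median was -1.14 over tested members and 0.016 over all rows tested, so most genes set beside a member would lie above it. The 41 of 47 therefore cannot be read as a trait of overlapping genes, and some genes, such as Mcm7 and Smc4, enter more than 1 pair. The microRNA was lower in 34 pairs, in which the overlapping gene was lower 8 times, higher 5 times and not past the threshold 21 times. The strand setting of the counting is not given in the sources used here, so reads of overlapping genes may have been assigned to either row.

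Copz2, the coat protein gene around Mir152, had 204 and 330 counts in siNT and 536 and 512 in si3m and a log2 fold change of 0.076 (SE 0.18), beside -2.32 for the microRNA. Its homologue Copz1 rose by 0.67 on the log2 scale (edgeR adjusted p = 0.00116), while Mir148b fell by 1.59. Smc4, a condensin subunit gene that holds both Mir15b and Mir16, fell by 0.26 on the log2 scale (edgeR adjusted p = 0.00207). Ctdsp1, a phosphatase gene, rose by 0.94, and its Mir26b fell by 0.39 (edgeR adjusted p = 0.00128 and 0.0346). In contrast, Tenm4, a large membrane protein gene, fell by 1.53 on the log2 scale, beside -2.41 for Mir708. Members that overlap a protein-coding gene had a median of -1.14 and the other members one of -1.15.

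**Figure D4:**
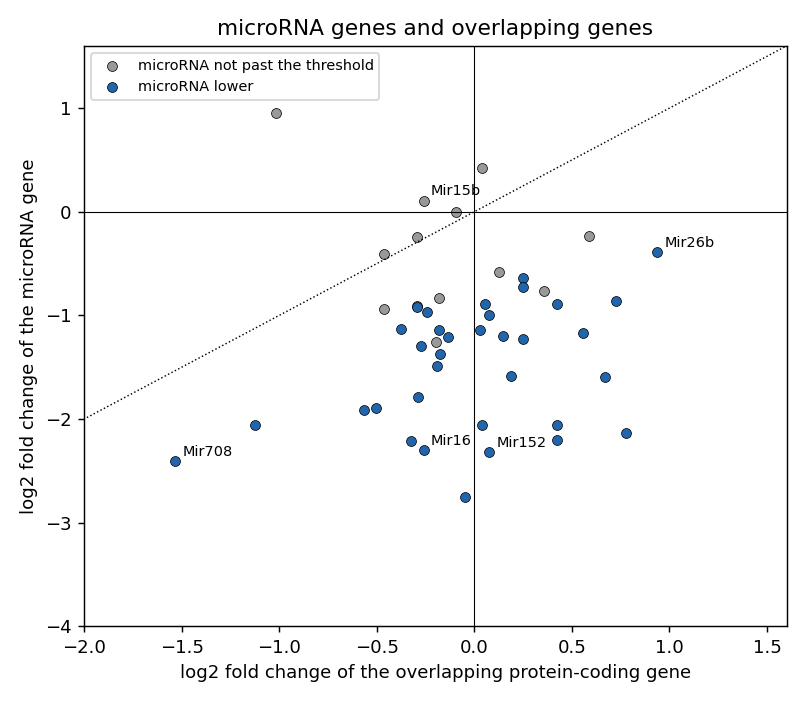
Log2 fold change (si3m against siNT) of each microRNA gene against that of the protein-coding gene it overlaps, for the 47 pairs with both tested. Blue points are microRNAs called lower by edgeR, grey points did not pass, and 41 of 47 points lie below the dotted line of equal change, for example Mir152 at -2.32 with Copz2 at 0.076.

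Across the tested members with a hairpin sequence in RefSeq (n = 96), log2 fold change had a Pearson correlation of 0.21 with the GC content of the hairpin, 0.049 with hairpin length and 0.046 with log2 mean CPM. These describe genes of the same 4 libraries, which are not independent replicates.

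Genes that make, use or destroy microRNAs showed no common direction. Of 28 such genes with a row, 27 were tested, 3 were higher, 4 were lower and 20 did not pass, with a median log2 fold change of -0.17, and the 25.9% called lay near the 27.8% of all rows. Dgcr8, the partner of Drosha, rose by 0.56 on the log2 scale (SE 0.14, edgeR adjusted p = 0.00819), Prkra, a partner of Dicer, by 1.10, and Ran, which drives hairpin export, by 0.26. Tnrc6a, the silencing effector bound by Argonaute, fell by 0.66, the exonuclease gene Xrn1 by 0.56 and the deadenylase scaffold Cnot1 by 0.17. Lin28b, which blocks let-7 maturation, had 62 and 48 counts in siNT and 56 and 50 in si3m, and fell by 0.95 on the log2 scale (SE 0.30, edgeR adjusted p = 0.0284). Drosha, Dicer1 and Ago2, the enzymes of hairpin cutting and target cleavage, had log2 fold changes of -0.18, -0.40 and 0.11 and did not pass.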

How the data were processed

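Ribosome profiling libraries of siNT and si3m cells (2 each) were used. The deposited values are whole-number counts per gene, not normalized by the authors, and 1 file holds 1 library. Tools named in the submitters' processing notes are HISAT2 2.2.1, featureCounts, Trimmomatic 0.40, DESeq2 and limma, with the build rn6. What each was used for, the annotation, the strand setting and how multiply matching reads were handled is not given in the sources used here. RefSeq GRCr8, not the build of the files, served for sequences, names and neighbours.

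The counts were tested with edgeR 4.0.16 in R 4.3.3 (a two-sided glmQLFTest after glmQLFit, with TMM scaling, filterByExpr at a minimum count of 10, Benjamini-Hochberg adjustment over all 12672 rows tested, threshold 0.05), without the replicate number. The script was tested on simulated data. CPM values are TMM-scaled, while shares are of the deposited totals. The members, families and gene lists were chosen with earlier results of these data known. Named genes were all members of the 4 families, the 12 largest falls and up to 8 largest rises past the threshold, the 8 highest mean CPM, the genes at the minimum sum, and muscle microRNAs. Other genes were named after their values were seen. Between replicates, the median chi-square was 1.40 (siNT) and 1.48 (si3m) times that of counting noise, and each library was kept as 1 sample. Alternatives were DESeq2 1.42.0 (its test, and its size factors), total count and upper quartile scaling, other low-count filters, the replicate block, leaving out each library, thinning to the smallest library, other minimum sums, and, chosen after seeing the data, counts divided by 2.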

Additional observations from a re-analysis of the deposited data

How the results depend on the processing

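With either library of a group left out, the lone library is assumed to vary like the other group. Among refits with all 4 libraries, members called lower ran from 62 of 116 tested (DESeq2's test) to 76 of 116 (no low-count filter). With at least 50 counts in 2 libraries, 62 of 76 were lower. In the same order, all rows called lower were 1629 of 19786, 1731 of 19786 and 1853 of 9509. Under all alternatives together the members' median log2 fold change lay between -1.39 and -0.88. The number of members called higher (1) was 7 without a low-count filter, and 0 in DESeq2's test and with at least 50 counts in 2 libraries (also 0 at an unadjusted p under 0.05 in both, against 1 in edgeR), and ranged from 0 to 11 with 1 library left out. For let-7 that number ranged from 0 to 1. The miR-15/16 median was -1.06 with counts divided by 2 and with a minimum sum of 100. Total count scaling moved all rows called to 2217 lower and 1428 higher, from 1757 and 1771, and the members called lower to 73. With the replicate number as a block, 75 of 110 members were lower, beside 1843 of 12672 rows. Deviations of same-numbered libraries had a correlation of -0.023. Counting noise can hold such a value near 0, so it cannot settle whether the replicate numbers pair the samples. The sign of Mirlet7a1 changed with total counts (log2 -0.064), the block (-0.12) and counts divided by 2 (-0.014). Leaving out 1 library gave log2 ranges across 0 for Mirlet7a1 (-0.98 to 0.65), Mir15b (-0.13 to 0.39), Mir30e (-1.09 to 0.10), Mir27a (-1.30 to 0.54), Mir140 (-1.84 to 0.57), Mir221 (-0.84 to 1.05) and Mir222 (-0.59 to 3.87). The cause was not tested. Mir92a2 was not called by DESeq2 (adjusted p = 0.228). Depth limits genes with few counts: 8 members had under 20 counts in siNT and 9 in si3m.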

Other observations

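Some microRNAs that are abundant in many cultured mesenchymal and endothelial cells had no counts at all. Mir21, Mir214 and Mir126a were listed at 0 in all 4 libraries, among the 232 microRNA rows without a count. Other microRNAs of the fibroblast and smooth muscle list had counts. In the order siNT 1, siNT 2, si3m 1 and si3m 2, Mir199a2 had 2710, 2790, 1588 and 1782. Mir143 had 48854, 48334, 28328 and 22220 in that order, and Mir145 had 1260, 1308, 1500 and 1118. Endothelial marker genes, the cell type of Mir126a, summed to at most 2.54 CPM in a library. In RefSeq GRCr8, 186 of the 232 genes without a count (80.2%) overlap another gene on either strand, as do 86 of the 116 members (74.1%). How reads in overlapping genes were counted is not given in the sources used here, and its part in these values was not tested.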
